A study of Homo sapiens with 8 samples.

Results

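The 10 genes described here encode inhibitors that the RAS-ERK pathway induces against itself: the dual specificity phosphatases DUSP4, DUSP5, DUSP6 and DUSP7, the Sprouty proteins SPRY1, SPRY2 and SPRY4, and the SPRED proteins SPRED1, SPRED2 and SPRED3. They were listed by name, with earlier results of these data known, out of 33791 genes with summed counts, and all 10 were kept by the filter for low counts, as were 14653 genes in all. RNA was sequenced from PNT2 cells, an immortalised epithelial line from normal human prostate, in 4 groups of 2 libraries that carry the letters A and B: wild type (WT), ERF knockdown (ERF KD), CIC knockout (CIC KO), and both losses together, labelled CIC-ERF codeletion. The study asked what follows when prostate cells lose CIC and ERF, a pair of transcriptional repressors. By its methods, ERF was lowered with short hairpin RNAs and CIC was cut with Cas9 and guide RNAs, in selected cell lines grown with serum and given no other agent that the labels name. Nothing in the labels says which hairpin or guide a library carries, or whether libraries A and B came from separate cultures, so the p-values below measure the spread between these samples, which may be technical.

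Growth factor receptors activate RAS, and a chain of kinases below RAS ends in the kinase ERK. Active ERK switches on genes whose products then restrain the same route: DUSP phosphatases remove phosphate from ERK, Sprouty proteins block signalling between receptors and RAS, and SPRED proteins hold back RAS by recruiting neurofibromin. Transcripts of these genes are therefore widely used as a readout of ERK output, and CIC and ETS repressors such as ERF are among the factors that sit at such genes.

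The labels of the single losses and the ERF mRNA went different ways. ERF stood at 55.8 and 55.9 CPM (counts scaled to a common library size) in WT A and B, at 81.2 and 77.8 in the ERF KD-labelled libraries, at 18.8 and 11.7 in the CIC KO-labelled pair, and at 11.6 and 10.4 in the codeletion. The group with low ERF mRNA among the single losses was thus the one labelled CIC KO. File names and genotype labels also disagree on which pair is which, since the letters for the single losses are swapped between them. CIC mRNA, which a guide RNA need not lower, was 128 and 129 CPM in WT, 109 and 109 in the ERF KD-labelled libraries, 132 and 131 in the CIC KO-labelled pair and 90.9 and 66.4 in the codeletion. The genotype labels were kept, and every direction below is that of the libraries so labelled. Libraries held 19477473 to 25813157 estimated counts, and 3 counts, the least taken as detected, equal 0.165 CPM in the shallowest. The ERF KD-labelled libraries also stood apart in cell identity: the summed level of 6 epithelial markers was 1645 to 2107 CPM there against 3793 to 4633 in WT, with 5 of 6 called lower, and that of 5 mesenchymal markers was 1776 to 2252 CPM against 168 to 292, with 5 of 5 called higher. In the other groups the 2 sums were 3932 to 5208 and 91.8 to 308 CPM. KLK3, a defining marker of luminal prostate cells, was at 0 in all 8 libraries, and the leukocyte marker PTPRC did not exceed 1.09 CPM. In bulk RNA, fewer cells of a type and less RNA per cell cannot be told apart.

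Against WT, 2 of the 10 feedback inhibitors rose in the ERF KD-labelled libraries: SPRY2, 1.90-fold, and SPRED1, 1.57-fold (edgeR quasi-likelihood test on estimated counts, Benjamini-Hochberg adjusted p under 0.05 over all genes). In this comparison 10.1% of all genes tested were called, in either direction. The median log2 fold change of the 10 members was 0.41, beside 0.01 over all genes. Both libraries lay above both WT libraries for 5 members (DUSP6, SPRY2, SPRY4, SPRED1 and SPRED3), where 28.3% of all genes did so, and below for 1 (SPRY1), where 28% of all genes did so. With the library letter as a block in the fit, 4 members were called (SPRY2, DUSP6, SPRED1 and SPRY4, all higher), where 18.2% of all genes were. DESeq2 called the same 4 members, where it called 14.3% of the genes to which it gave an adjusted p, and limma on log2(TPM + 1) called 1, SPRY2, beside 7.04% of all genes.

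No feedback inhibitor was called in the CIC KO-labelled libraries, where the test called 0% of genes (edgeR). At an unadjusted p under 0.05 there were 3 members (DUSP5 and SPRY4, with higher values, and DUSP7, with lower ones), beside 4.01% of all genes. DESeq2 and limma also called 0, where they called 0.177% and 0% of genes. The median log2 fold change was 0.30 for the members and 0.01 for all genes. Both libraries lay above both of WT for 4 members (DUSP4, DUSP5, SPRY4 and SPRED2), as they did for 16.1% of all genes, and below for DUSP7, again beside 16.1% of all genes.

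Neither was any member called in the codeletion, in a comparison where edgeR called 10 genes in all, or 0.0682% of those tested. At an unadjusted p under 0.05 there were 5 members (DUSP4, DUSP5, SPRY4, SPRED1 and SPRED2, all with higher values), beside 13.3% of all genes. DESeq2 called 2, DUSP4 and SPRY4, in a comparison where it called 3.15% of genes, and limma called 0, beside 0.00682% of genes. The members' median log2 fold change was 0.47, the highest of the 3 comparisons with WT, beside 0.00 over all genes. All but SPRY1, SPRED3 and DUSP7, that is 7 members, had both codeletion libraries above both WT libraries, which held for 24.4% of all genes, and DUSP7 had both below, which held for 25.1%. These 3 comparisons share the WT libraries, so their values stand side by side and are not independent of each other.

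**Figure D1:**
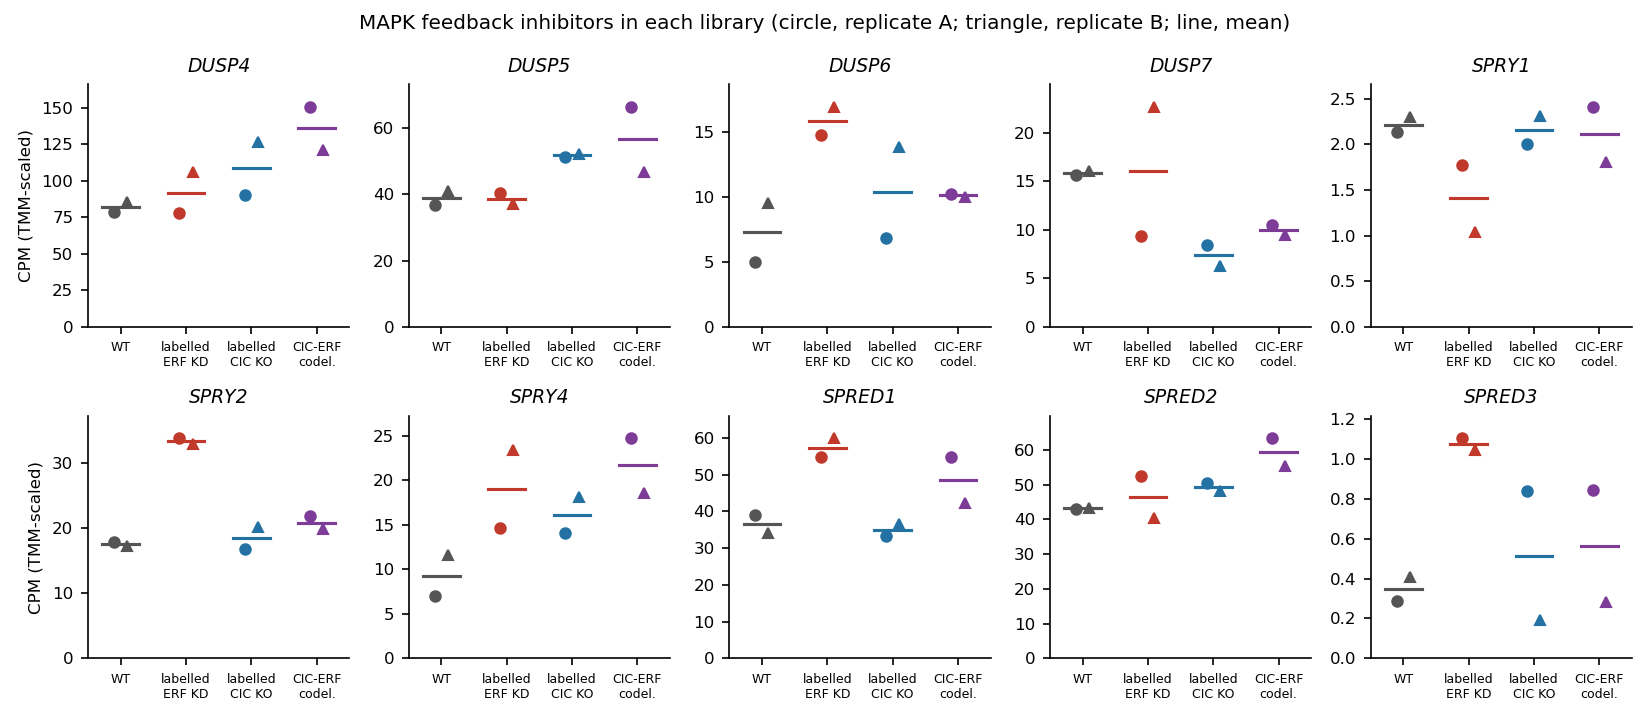
Level of each feedback inhibitor in each of the 8 libraries, in CPM on a linear axis that starts at 0, by group; circles are replicate A, triangles replicate B and lines the mean of 2. SPRY2 sits at 32.9 to 33.8 CPM in the ERF KD-labelled libraries and at 16.8 to 21.8 in the other 6, while DUSP7 is split between 9.37 and 22.7 in the ERF KD-labelled libraries.

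**Figure D2:**
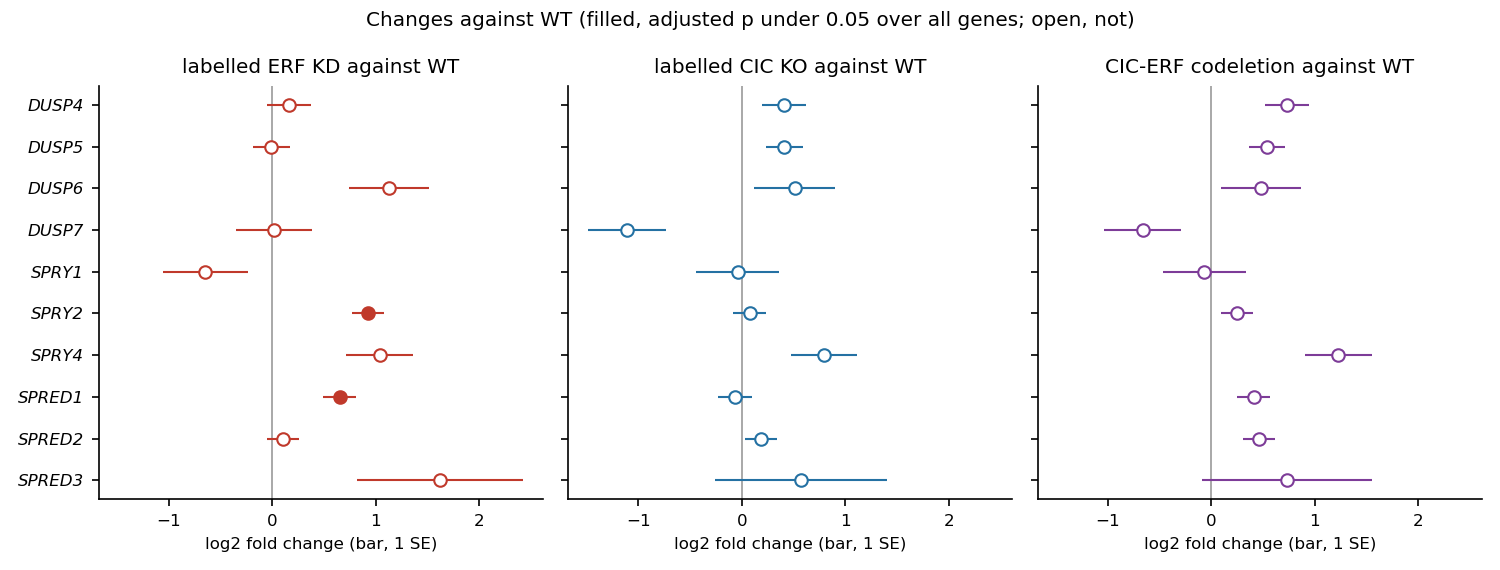
Log2 fold change of each member against WT, with a bar of 1 standard error either side, in the ERF KD-labelled libraries, the CIC KO-labelled pair and the codeletion; filled points have an adjusted p under 0.05 over all genes. The only filled points are SPRY2 and SPRED1 in the ERF KD-labelled libraries, and the widest bars belong to SPRED3.

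Levels between genes were compared as TPM, which divides by transcript length and scales to a common total. In WT, DUSP5 was the most abundant member at 23.6 ± 0.34 TPM (SD, n = 2), above DUSP4 at 21.5 ± 0.225 and SPRED2 at 21.2 ± 1.94, which overlapped each other. SPRY2 followed at 13.3 ± 1.02 and SPRED1 at 9.10 ± 1.63, each apart from its neighbours. DUSP7 (6.81 ± 0.344), DUSP6 (5.04 ± 3.31) and SPRY4 (4.38 ± 1.16) overlapped their neighbours among these 3, and SPRY1 (2.55 ± 0.316) and SPRED3 (0.770 ± 0.00226) came last. DUSP6 also overlapped SPRY1, since in WT A it stood at 2.70 TPM and SPRY1 at 2.77. In the ERF KD-labelled libraries, SPRY2 moved to the head of the order at 25.0 ± 1.71 TPM, and SPRED1 stood at 15.8 ± 1.61. SPRY2 overlapped DUSP4 at 23.7 ± 4.06 and DUSP5 at 23.0 ± 2.36 there. DUSP5, DUSP4 and SPRED2 held the top 3 places in the CIC KO-labelled libraries and in the codeletion, and among these 3 neighbours in the order overlapped. The highest and the lowest of them did not. In the CIC KO-labelled libraries DUSP5 stood at 28.9 to 31.5 TPM and SPRED2 at 20.4 to 25.2. In the codeletion the lower DUSP4 library, at 29.68 TPM, was barely above the higher SPRED2 library, at 29.66. SPRED3 was the least abundant member in all 4 groups, at 0.625 to 0.963% of the summed TPM of the 10 genes.

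**Figure D3:**
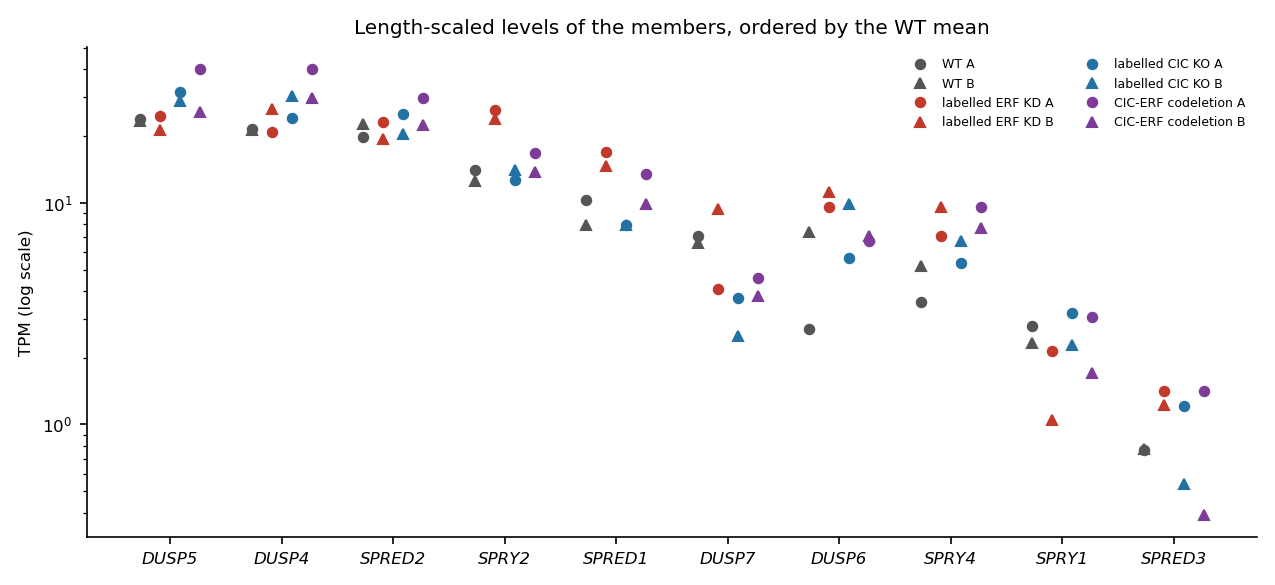
TPM of the 10 members on a log axis, ordered by the WT mean, with a colour for each group, circles for replicate A and triangles for replicate B. SPRY2 is the member that changes place most, from the fourth at 13.3 TPM in WT to the first at 25.0 TPM in the ERF KD-labelled libraries.

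DUSP4, on chromosome 8, encodes a nuclear phosphatase that acts on ERK, JNK and p38. It was measured at 78.6 and 85.3 CPM in WT, 78.0 and 106 in the ERF KD-labelled libraries, 90.3 and 127 in the CIC KO-labelled pair, and 151 and 121 in the codeletion. Both codeletion libraries lay above WT, and the ERF KD-labelled libraries spanned WT. The log2 fold change in the codeletion was 0.73 (SE 0.213, adjusted p = 0.214), and DESeq2 put it at 0.73 with an adjusted p of 0.0479. Almost all of the gene's TPM, 98.4%, fell on the transcript DUSP4-201.

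DUSP5, a nuclear phosphatase specific to ERK, lies on chromosome 10 at 110497838-110511544, plus strand (GENCODE release 29, GRCh38, as are the gene positions below). It read 36.9 and 41.2 CPM in WT and 40.5 and 37.0 in the ERF KD-labelled libraries. It read 51.4 and 52.3 CPM in the CIC KO-labelled libraries and 66.6 and 46.7 in the codeletion. All 4 libraries of the last 2 groups were above all 4 of the first 2. No comparison passed the test: the log2 fold change against WT was 0.41 in the CIC KO-labelled libraries (SE 0.178, adjusted p = 0.9997) and 0.54 in the codeletion (SE 0.178, adjusted p = 0.264). Between the codeletion and the ERF KD-labelled libraries it was 0.55 (SE 0.178, adjusted p = 0.0869), and 0.54 with an adjusted p of 0.0493 in the fit with the library letter as a block. It was also called without codeletion replicate B (0.78, adjusted p = 0.0334).

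DUSP6 (chromosome 12, 89347232-89353271, minus strand) encodes the cytoplasmic phosphatase often used as a transcript readout of ERK activity. Its values were 4.99 and 9.59 CPM in WT, 14.8 and 17.0 in the ERF KD-labelled libraries, 6.83 and 13.9 in the CIC KO-labelled pair, and 10.2 and 10.04 in the codeletion. The ERF KD-labelled libraries were the 2 highest of the 8, and the 2 WT libraries differed by more than the means of WT and the codeletion did. The log2 fold change in the ERF KD-labelled libraries was 1.13 (SE 0.388, adjusted p = 0.113), and 1.18 (SE 0.285, adjusted p = 0.0230) with the block. DUSP6 is the only member whose exons overlap another annotated gene: 1875 exonic bases are shared with AC024909.2 on the opposite strand, and whether the counting used strand is not given in the sources used here, so reads of the 2 genes may not be told apart. Its TPM was spread over 4 transcripts, of which DUSP6-202 took the highest mean share, 35.0%.

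DUSP7 (chromosome 3, 52048919-52056550, minus strand), a cytoplasmic phosphatase close to DUSP6 in kind, gave lower values than both WT libraries in 5 of the 6 libraries with a loss. It stood at 15.6 and 16.1 CPM in WT, 8.42 and 6.30 in the CIC KO-labelled libraries, and 10.5 and 9.47 in the codeletion. These 4 libraries were all below WT, while the ERF KD-labelled libraries gave 9.37 and 22.7, one below and one above. The log2 fold change was -1.11 (SE 0.377, adjusted p = 0.9997) in the CIC KO-labelled libraries and -0.66 (SE 0.372, adjusted p = 0.480) in the codeletion. Without a filter on low counts edgeR called the first of these (-1.11, adjusted p = 0.0177), where it called 0.554% of genes. In the codeletion against the ERF KD-labelled libraries the log2 fold change was -0.68 (SE 0.372, adjusted p = 0.300). It was -1.18 without ERF KD replicate A and 0.10 without ERF KD replicate B. DUSP7-202 carried 86.6% of the gene's TPM.

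SPRY1 (chromosome 4, 123396795-123403760, plus strand) encodes a Sprouty protein that restrains receptor signalling. Little of it was present: 2.14 and 2.29 CPM in WT, 1.78 and 1.04 in the ERF KD-labelled libraries, 1.999 and 2.31 in the CIC KO-labelled pair, and 2.41 and 1.80 in the codeletion. The ERF KD-labelled libraries were the 2 lowest, with a log2 fold change of -0.65 against WT (SE 0.409, adjusted p = 0.380). The other 2 comparisons with WT gave -0.04 and -0.07.

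SPRY2, the most studied Sprouty, binds GRB2 and the ubiquitin ligase CBL. It lies on chromosome 13 at 80335976-80340951, minus strand, and 89.8% of its TPM fell on SPRY2-202. Of its 3 RefSeq promoter windows, each of 250 bases before and 50 after an annotated start, the one whose start lies nearest to that of SPRY2-202, 175 bases upstream of it, is printed because SPRY2 had the lowest adjusted p of the members. It covers chr13:80341077-80341376 on the minus strand of GRCh38.p14, is written 5′ to 3′ along the gene, and has the ETS core GGAA, or TTCC where the core is on the opposite strand, in capitals.
SPRY2: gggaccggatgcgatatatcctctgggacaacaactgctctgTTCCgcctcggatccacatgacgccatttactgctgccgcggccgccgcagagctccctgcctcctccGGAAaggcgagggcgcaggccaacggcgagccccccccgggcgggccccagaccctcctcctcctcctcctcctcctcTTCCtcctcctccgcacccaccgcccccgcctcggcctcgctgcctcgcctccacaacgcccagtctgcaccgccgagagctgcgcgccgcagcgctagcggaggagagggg
This window holds 3 matches to GGAA, beside a median of 3 over the 34943 windows of the table, and none of the CIC octamers TGAATGAA, TCAATGAA and TGAATGGA. SPRY2 read 17.9 and 17.2 CPM in WT, 33.8 and 32.9 in the ERF KD-labelled libraries, 16.8 and 20.2 in the CIC KO-labelled pair, and 21.8 and 19.8 in the codeletion. The ERF KD-labelled libraries stood clear of all 6 others, and the codeletion pair lay slightly above WT. SPRY2 rose by 0.93 on the log2 scale against WT (SE 0.156, adjusted p = 0.00803). This call was lost without WT replicate A (0.95, adjusted p = 0.0672) and without WT replicate B (0.90, adjusted p = 0.0743), and held when any of the other 6 libraries was left out.

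Against the CIC KO-labelled libraries, the ERF KD-labelled pair had more SPRY2 by 0.85 on the log2 scale (SE 0.156, adjusted p = 0.0119). The call was lost without ERF KD replicate A (adjusted p = 0.0514), without CIC KO replicate A (adjusted p = 0.0834) and with only the 4 libraries compared in the fit (adjusted p = 0.0524). In the codeletion, SPRY2 was lower than in the ERF KD-labelled libraries by 0.68 on the log2 scale (-0.68, SE 0.155, adjusted p = 0.0266), while against WT it gave 0.25 (SE 0.156, adjusted p = 0.527). The first of these calls depended on single libraries: it was lost without WT replicate A (adjusted p = 0.0608), WT replicate B (0.0595), ERF KD replicate A (0.0928), ERF KD replicate B (0.0847), codeletion replicate A (0.0966) or codeletion replicate B (0.125), and the log2 fold change stayed between -0.75 and -0.61. It was also lost with length-scaled counts (0.0516), with only the 4 libraries compared in the fit (0.0610) and by limma on log2(TPM + 1) (0.0735). The interaction, which asks whether the 2 losses together differ from the sum of each alone, was -0.76 for SPRY2 (SE 0.220, adjusted p = 0.114).

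SPRY4 (chromosome 5, 142310427-142326455, minus strand), another Sprouty that restrains receptor signalling, gave 6.98 and 11.6 CPM in WT, 14.6 and 23.4 in the ERF KD-labelled libraries, 14.0 and 18.1 in the CIC KO-labelled pair, and 24.8 and 18.6 in the codeletion. It is the only member with both libraries above both WT libraries in all 3 comparisons with WT, which share those 2 libraries. The log2 fold changes were 1.04 (SE 0.322, adjusted p = 0.0839), 0.79 (SE 0.322, adjusted p = 0.9997) and 1.23 (SE 0.322, adjusted p = 0.182), in the same order. None passed the test. DESeq2 called the first (1.03, adjusted p = 0.0235) and the third (1.22, adjusted p = 0.0197), and the fit with the block called the first (1.04, adjusted p = 0.0323). SPRY4-201 held 48.2 to 70.3% of the gene's TPM in single libraries, and the remainder was on other annotated transcripts of the gene.

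SPRED1, the SPRED protein that is mutated in Legius syndrome, brings neurofibromin to RAS. It lies on chromosome 15 at 38252326-38357249, plus strand, and SPRED1-201 carried 78.2% of its TPM. Its RefSeq window is printed as that of the other member called, and covers chr15:38252586-38252885 on the plus strand of GRCh38.p14, with GGAA or TTCC in capitals as above. Its start lies 510 bases downstream of that of SPRED1-201 and 12 bases upstream of that of SPRED1-202.
SPRED1: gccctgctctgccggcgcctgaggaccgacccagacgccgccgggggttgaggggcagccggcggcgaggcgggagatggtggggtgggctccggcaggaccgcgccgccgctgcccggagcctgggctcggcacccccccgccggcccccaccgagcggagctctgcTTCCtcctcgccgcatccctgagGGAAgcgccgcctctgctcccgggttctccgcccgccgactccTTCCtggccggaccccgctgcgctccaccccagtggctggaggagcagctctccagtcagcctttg
The window holds 3 matches to GGAA and none to the octamers. SPRED1 measured 38.9 and 34.1 CPM in WT, 54.7 and 60.0 in the ERF KD-labelled libraries, 33.2 and 36.4 in the CIC KO-labelled pair, and 54.7 and 42.2 in the codeletion. The 4 libraries of the ERF KD-labelled pair and the codeletion were above the other 4. Against WT, SPRED1 rose by 0.65 on the log2 scale in the ERF KD-labelled libraries (SE 0.162, adjusted p = 0.0401). That call was lost without WT replicate A (adjusted p = 0.135), WT replicate B (0.238), ERF KD replicate A (0.0822), ERF KD replicate B (0.154), CIC KO replicate A (0.0541) or CIC KO replicate B (0.0519), with log2 fold changes of 0.56 to 0.74, and by limma on log2(TPM + 1) (0.74, adjusted p = 0.116). The codeletion gave 0.41 against WT (SE 0.161, adjusted p = 0.340).

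Between the single losses, SPRED1 was higher in the ERF KD-labelled libraries by 0.72 on the log2 scale (SE 0.162, adjusted p = 0.0285). Leaving out WT replicate A (adjusted p = 0.0511), ERF KD replicate A (0.0657), ERF KD replicate B (0.116), CIC KO replicate A (0.151) or CIC KO replicate B (0.0791) ended the call, as did a fit of the 4 libraries alone (0.0545) and limma on log2(TPM + 1) (0.0663).

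SPRED2 (chromosome 2, 65310851-65432637, minus strand), a relative of SPRED1 with the same domains, had the smallest ratio between its highest and lowest library in CPM, 1.57-fold, where the other members had 1.80 to 5.74-fold. The values were 43.1 and 43.4 CPM in WT, 52.4 and 40.5 in the ERF KD-labelled libraries, 50.5 and 48.2 in the CIC KO-labelled pair, and 63.4 and 55.5 in the codeletion. The codeletion libraries were the 2 highest of the 8, by 0.46 on the log2 scale against WT (SE 0.155, adjusted p = 0.272). SPRED2-201 took 73.8% of the gene's TPM.

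SPRED3 (chromosome 19, 38388421-38399587, plus strand), the third SPRED, was close to the limit of detection, with 4 to 23 estimated counts per library. It was measured at 0.285 and 0.408 CPM in WT, 1.105 and 1.04 in the ERF KD-labelled libraries, 0.837 and 0.192 in the CIC KO-labelled pair, and 0.847 and 0.282 in the codeletion. The log2 fold change in the ERF KD-labelled libraries was 1.62 with an SE of 0.802 (adjusted p = 0.259), and the A and B libraries of the other 2 altered groups differed more than the groups did. SPRED3 is shown because 1 of its 2 RefSeq windows, chr19:38389541-38389840 on the plus strand of GRCh38.p14, was the only window of the members with a CIC octamer. TGAATGAA lies at bases -192 to -185 from the annotated start, and the capitals mark it and the GGAA cores. That start lies 1370 bases downstream of that of SPRED3-204, the transcript with the highest mean share of the gene's TPM. It lies 179 bases downstream of that of SPRED3-202. The octamer is thus not upstream of SPRED3-204, but it ends just upstream of the start of SPRED3-202. That transcript had a mean share of 9.73% of the gene's TPM, on 12.7 estimated counts summed over the libraries.
SPRED3: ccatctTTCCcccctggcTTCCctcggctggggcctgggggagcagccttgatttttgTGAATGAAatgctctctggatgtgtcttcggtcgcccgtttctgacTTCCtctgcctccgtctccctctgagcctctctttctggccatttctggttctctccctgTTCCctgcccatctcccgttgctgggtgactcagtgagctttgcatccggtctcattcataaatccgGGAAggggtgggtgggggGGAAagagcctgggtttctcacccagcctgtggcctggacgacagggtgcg
Of 13 windows for 8 members (DUSP6, DUSP7, SPRY1, SPRY2, SPRY4, SPRED1, SPRED2 and SPRED3), 1 held an octamer, beside 3.28% of all windows in the table, and TGAATGAA itself was in 1.65%, TCAATGAA in 0.721% and TGAATGGA in 1.02%. GGAA was in 12 of the 13, with 0 to 6 matches each, beside 95.4% of all windows. Both strands were searched. DUSP4 and DUSP5 had no window in the table. A match is a string of letters and not a bound site, and the windows are short.

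Between groups that each carry a loss, few members were called. The codeletion against the ERF KD-labelled libraries gave 1 (SPRY2, lower), beside 11.7% of all genes, and 2 with the block (SPRY2, lower, and DUSP5, higher), beside 20.6%. The ERF KD-labelled libraries against the CIC KO-labelled pair gave 2 (SPRY2 and SPRED1, higher), beside 9.4%. By DESeq2 and by edgeR without a filter on low counts, DUSP7 was called higher there too. With the filter its log2 fold change by edgeR was 1.12 (SE 0.377, adjusted p = 0.113). The codeletion against the CIC KO-labelled libraries gave 0 by edgeR, which called 0% of genes. It gave 1 member at an unadjusted p under 0.05 (SPRED1, log2 fold change 0.48, adjusted p = 0.495) beside 8.3% of all genes, and 0 by DESeq2 and limma, which called 1.08% and 0% of genes (DESeq2 gave 1 of the 10 members no adjusted p here). No interaction was called for a member by edgeR, which called one in 4.15% of all genes. At an unadjusted p under 0.05 there was 1, SPRY2, beside 17.5% of all genes, and DESeq2 and limma called 0, where 7.74% and 2.13% of genes were called.

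The patterns most like those of the 2 called members were looked for among 12598 protein-coding genes over the 8 libraries, as Pearson's r of log2 CPM. For SPRY2 they were MAMLD1 (r = 0.992) and SLC36A4 (r = 0.987), and for SPRED1 PCID2 (r = 0.984) and NFIC (r = 0.974). MAMLD1 was at 5.74 ± 0.323 CPM in WT, 13.2 ± 0.0720 in the ERF KD-labelled libraries, 5.95 ± 0.913 in the CIC KO-labelled pair and 6.69 ± 0.772 in the codeletion (SD, n = 2). The points share libraries and scaling, and the 2 ERF KD-labelled libraries lie far from the other 6 in SPRY2 and in MAMLD1.

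Both called members had their highest group means where the mesenchymal markers were highest and the epithelial markers lowest, in the ERF KD-labelled libraries. The mesenchymal marker VIM, an intermediate filament protein, rose 10.9-fold there (adjusted p = 0.00835), and CDH1, the epithelial cadherin, fell by 4.41 on the log2 scale (adjusted p = 1.27e-05). In the codeletion SPRED1 had a mean of 48.5 ± 8.81 CPM while the summed mesenchymal level, 91.8 to 188 CPM, was no higher than the highest WT value. What part the change in these markers has in the values of SPRY2 and SPRED1 was not tested.

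**Figure D4:**
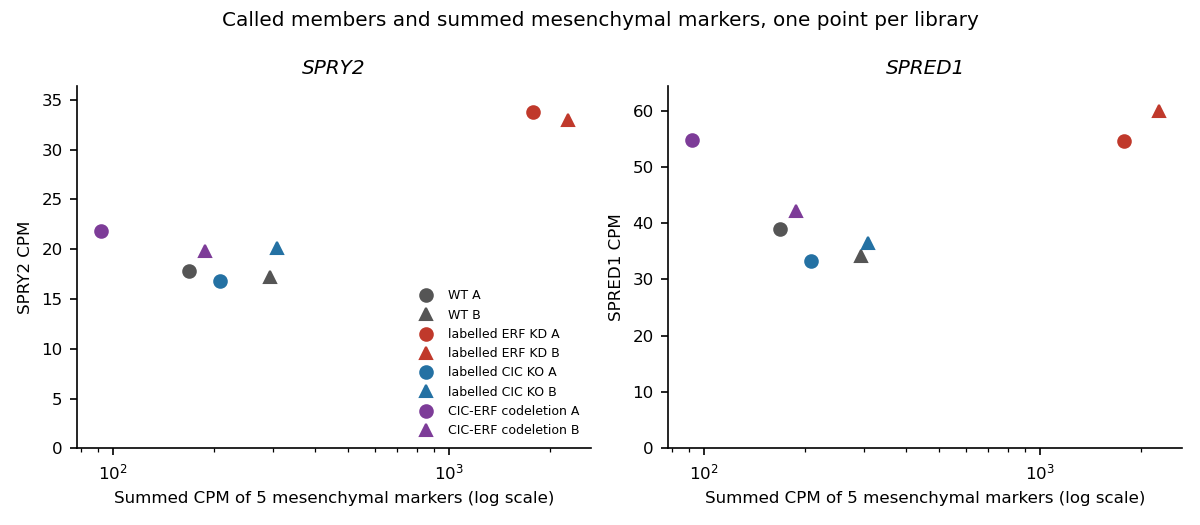
CPM of SPRY2 and of SPRED1 against the summed CPM of 5 mesenchymal markers (VIM, ZEB1, ZEB2, CDH2 and TWIST1; log axis), 1 point per library. The ERF KD-labelled libraries lie at 1776 to 2252 CPM of the markers, with 32.9 to 33.8 CPM of SPRY2 and 54.7 to 60.0 of SPRED1, and codeletion replicate A reaches 54.7 CPM of SPRED1 at 91.8 CPM of the markers.

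Other MAPK phosphatases and the remaining Sprouty gene were called in both directions. Of DUSP1, DUSP2, DUSP8, DUSP9, DUSP10, DUSP16 and SPRY3, 6 were tested (DUSP2 was not), and in the ERF KD-labelled libraries 1 rose and 2 fell, with a median log2 fold change of -1.56 beside 0.01 over all genes. Of all genes, 10.1% were called in that comparison with WT, in either direction. DUSP1, the immediate early phosphatase of stress and growth factor responses, rose from 41.7 ± 1.73 to 115 ± 20.0 CPM (log2 fold change 1.46, SE 0.294, adjusted p = 0.0176). It was not called without WT replicate A (adjusted p = 0.0933), WT replicate B (0.101) or ERF KD replicate A (0.0722). DUSP10, which acts on JNK and p38, fell from 52.2 ± 13.1 to 29.8 ± 3.82 CPM (log2 fold change -0.81, SE 0.202, adjusted p = 0.0410). Its call was lost without WT replicate B (-0.52, adjusted p = 0.253), ERF KD replicate A (0.177), ERF KD replicate B (0.0791), CIC KO replicate B (0.0514), codeletion replicate A (0.0555) or codeletion replicate B (0.0601), or with only the 4 libraries compared in the fit (0.0670). SPRY3 fell from 4.44 ± 0.299 to 1.13 ± 0.234 CPM (log2 fold change -1.98, SE 0.503, adjusted p = 0.0438). Leaving out WT replicate A (0.169), WT replicate B (0.130), ERF KD replicate A (0.172), ERF KD replicate B (0.113), codeletion replicate A (0.0670) or codeletion replicate B (0.0695) ended that call, here by adjusted p, as did length-scaled counts (0.0596). Limma on log2(TPM + 1), a scale that understates changes at such low levels, gave -0.57 (adjusted p = 0.200), and on log2(TPM + 0.1) -1.58 (adjusted p = 0.145). With the block, DUSP8 and DUSP16 were called lower too.

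DUSP10 had the lowest adjusted p of the list between the codeletion and the ERF KD-labelled libraries: 112 ± 14.7 CPM against 29.8 ± 3.82 (log2 fold change 1.91, SE 0.206, adjusted p = 0.000872), and 53.2 ± 5.33 in the CIC KO-labelled libraries. In that comparison 3 of the 6 were called higher (DUSP9, DUSP10 and DUSP16) and none lower, where the members had 1 lower. There edgeR called 11.7% of all genes, in either direction. DUSP9 was under the level taken as detected in the ERF KD-labelled libraries, at 0.048 and 0.099 CPM in A and B. In the codeletion it was at 1.44 and 0.846 CPM, so the size of its change is poorly known. No gene of this list was called in the CIC KO-labelled libraries or in the codeletion against WT, where edgeR gave 0 and 2 of them an unadjusted p under 0.05. Of all genes, edgeR called 0% in the first and 0.0682% in the second, so the lack of a call says little about this list. It gave 4.01% and 13.3% of all genes an unadjusted p under 0.05. Limma called 0 in both, DESeq2 called 0 in the first and DUSP1 and DUSP10 in the second (beside 3.15% of genes), and so did the fit with the block.

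**Figure D5:**
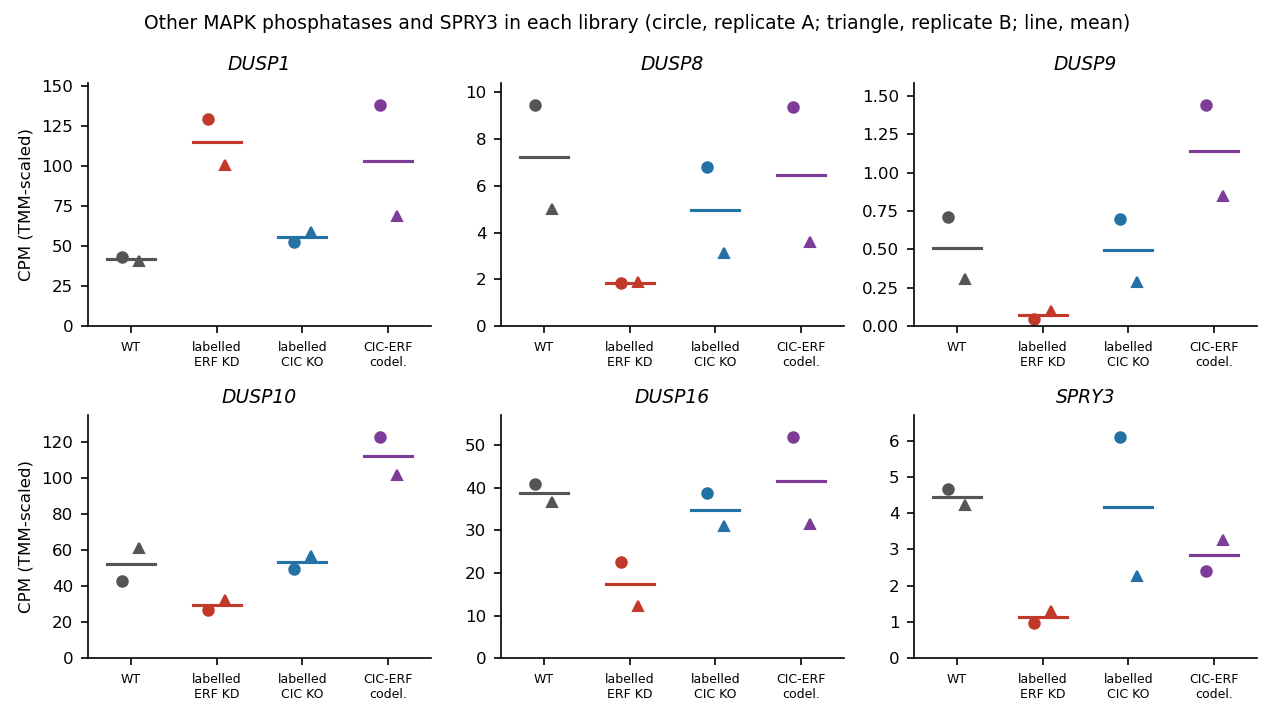
CPM of 5 further MAPK phosphatases and of SPRY3 in each library, on linear axes that start at 0, with circles for replicate A, triangles for replicate B and lines for the mean of 2. DUSP1 averages 115 CPM in the ERF KD-labelled libraries against 41.7 in WT, and the other 5 genes have both of those libraries below both of WT. DUSP9 is at 0.048 and 0.099 CPM in them, under the level taken as detected.

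A few genes of the pathway that these inhibitors act on were called in the ERF KD-labelled libraries. There 10.1% of all genes were called against WT, in either direction. Of 21 RAS-ERK pathway genes, 2 fell, which is not read as a change of the pathway. The adaptor GAB1 fell by 1.41 on the log2 scale (adjusted p = 0.0106) and the scaffold KSR1 fell by 2.02 (adjusted p = 0.0165). Both calls were lost without WT replicate A (adjusted p = 0.0665 and 0.0839) and without ERF KD replicate B (0.0546 and 0.0895), and that of GAB1 by limma on log2(TPM + 1) (0.0662). Of 7 upstream receptors, FGFR2 fell by 3.55 (adjusted p = 0.0135), and not without WT replicate A (0.0518), and FGFR3 fell by 1.52 (adjusted p = 0.0331), a call lost without WT replicate A (0.171), WT replicate B (0.0848), ERF KD replicate A (0.123) or ERF KD replicate B (0.106), with length-scaled counts (0.0973) or by limma on log2(TPM + 1) (-0.997, adjusted p = 0.156). None of the 21 pathway genes or the 7 receptors was called by edgeR or limma in the CIC KO-labelled libraries or in the codeletion against WT. Over all genes edgeR called 0% and 0.0682% in these comparisons, and limma 0% and 0.00682%, so the lack of a call says little. An unadjusted p under 0.05 was given by edgeR to 4.01% and 13.3% of all genes. The pathway genes with an unadjusted p under 0.05 numbered 0 and 2 there and the receptors 1 and 0, and DESeq2 called 0 of the receptors in both and 0 of the pathway genes in the first.

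Genes that ERK induces and that do not inhibit it were split as well. Of 10 such genes 9 were tested, IER3 being listed at 0 in all libraries, and 2 rose and 1 fell in the ERF KD-labelled libraries. In that comparison with WT, 10.1% of all genes were called, in either direction. The ETS factors ETV5 and ETV4 rose by 1.95 (SE 0.197, adjusted p = 0.000718) and 1.51 (SE 0.213, adjusted p = 0.00369) on the log2 scale, and kept their calls when any 1 library was left out. EGR1, an immediate early zinc finger factor, fell by 2.20 (SE 0.407, adjusted p = 0.0123), and was not called without ERF KD replicate A (0.0618) or B (0.0639). In the codeletion ETV4 and ETV5 gave 1.61 and 1.29 against WT with adjusted p of 0.0590 and 0.0613, and with the block 0.0139 and 0.0204. No share of all genes is given for that fit with the block. DESeq2 called both (adjusted p = 2.84e-08 and 5.06e-06), beside 3.15% of genes, and limma on log2(TPM + 1) called neither. Of 7 feedback regulators outside the DUSP, SPRY and SPRED families 1 was called in the ERF KD-labelled libraries: ERRFI1, an inhibitor of the EGF receptor, which fell by 2.42 (SE 0.306, adjusted p = 0.00219) and kept its call when any 1 library was left out.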

How the data were processed

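RNA from 8 PNT2 libraries was measured. The authors deposited, per transcript, estimated counts, TPM and an effective length (kallisto's columns, with no pooling of replicates). The submitters' processing notes name the genome build hg19. The version, index and strand setting are not given in the sources used here. Of 180253 transcripts, 153245 (85.0%) matched GENCODE 29, and their deposited estimated counts, 93.2 to 93.3% of each library, were summed per gene and rounded. Gene TPM are sums of the deposited TPM. All 8 libraries were fitted with edgeR 4.0.16 in R 4.3.3 (TMM, filterByExpr, quasi-likelihood test, adjusted over 14653 genes), and SE is the log2 fold change divided by the square root of F. CPM are TMM-scaled. The code was tested on simulated data. DESeq2 1.42.0, limma 3.58.1 on log2(TPM + 1) and log2(TPM + 0.1), no filter, length-scaled counts, only the groups compared, the library letter as a block and each library left out were alternatives. Deviations of same-letter libraries correlated at 0.136 to 0.335 over the 6 pairs of groups. The spread that edgeR estimated over all genes (biological coefficient of variation) was 0.197, and 0.142 with the letter as a block. Both are signs of pairing, which the main fit leaves out, and the labels do not say what a letter marks. An exact permutation test of 2 against 2 cannot go below 0.333. Counting error is covered only in part by these counts, which carry no molecular identifiers. Named genes are the 10 members, CIC, ERF, up to 4 genes per list called in the libraries labelled ERF KD and the 2 most alike per called member. Others named (markers, and genes that make up a count of 5 or fewer) were chosen after their values were seen. Members and lists were chosen with earlier results of these data known. A RAS-ERK pathway gene that the naming rule picks is not reported here, nor are pathway counts that rest on it.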

Additional observations from a re-analysis of the deposited data

Results flagged for a closer look

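No member of the family met a rule for a closer look. Among the other genes named, 5 had an interaction past the threshold, which means that the 2 losses together differed from the sum of the single losses (edgeR, log2 scale, adjusted p over all genes): DUSP10 at 1.89 (adjusted p = 0.0101), GAB1 at 1.93 (adjusted p = 0.0216), KSR1 at 2.75 (adjusted p = 0.0307), FGFR2 at 3.98 (adjusted p = 0.0452) and ERRFI1 at 2.31 (adjusted p = 0.0207). In each of them the ERF KD-labelled libraries were low and the codeletion libraries were not. These genes were named because they were called in the ERF KD-labelled libraries against WT, a difference that the interaction contains. Low values there and the sign of the interaction thus follow in part from that choice. Over all genes, edgeR called an interaction in 4.15%. With each of the 8 libraries left out in turn, the interaction of DUSP10 was called in 8 of 8 fits, those of GAB1 and ERRFI1 in 4, that of KSR1 in 3 and that of FGFR2 in 2. By limma on log2(TPM + 1) the interactions of GAB1 (1.33, adjusted p = 0.194), KSR1 (2.30, adjusted p = 0.0723) and FGFR2 (2.70, adjusted p = 0.0884) were not called, and with length-scaled counts those of GAB1 (1.44, adjusted p = 0.0797) and FGFR2 (3.58, adjusted p = 0.0540) were not.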

How the results depend on the processing

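Over the 37 member values tested, 552 alternative values gave 483 on the same side of zero and of the threshold, 15 newly called, 31 no longer called and 23 of the opposite sign. For the 11 other genes named (19 values), 211 of 280 stayed, 62 were no longer called, 7 were newly called and 0 changed sign. The 37 member values are those taken for this check and not all that were fitted, and the same holds for the 19. Cause was not tested for any change below.

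Of the 10 members, 2 were called in the ERF KD-labelled libraries against WT; the count was 4 by DESeq2, 4 without a filter on low counts, 4 with the replicate block, 1 by limma on log2(TPM + 1) or log2(TPM + 0.1), and 0 to 2 with 1 library left out. In the ERF KD-labelled libraries against WT, edgeR called 10.1% of all genes, DESeq2 14.3%, the replicate block 18.2% and limma on log2(TPM + 1) 7.04%. Without the filter, 1 member was called in the CIC KO-labelled libraries against WT, beside 0.554% of genes. In the codeletion against WT it was 2 without the filter and 2 by DESeq2, which called 3.15% of genes. No share of all genes is given for the other counts without the filter, nor for DESeq2 between the single losses. Those counts have no general rate beside them. The codeletion against the ERF KD-labelled pair gave 3 without the filter, 2 with the replicate block, 0 with length-scaled counts, by either limma fit or with only the groups compared, and 0 to 1 with 1 library left out. The single losses against each other gave 3 without the filter and by DESeq2, 1 by either limma fit, 0 with only the groups compared, and 0 to 2 with 1 library left out. Where only the groups compared were fitted, SPRED3 was dropped by the filter in 2 of the comparisons.

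The replicate block changed no other call on a member. Signs turned only for uncalled values. DUSP7 in the ERF KD-labelled libraries was -0.020 with the replicate block, -0.0008 with only the groups compared and -0.10 and -0.13 by limma. SPRY1 in the CIC KO-labelled libraries was 0.12 with length-scaled counts and 0.067 and 0.085 by limma. SPRED3 in the codeletion was -0.018 by limma on log2(TPM + 0.1). With 1 library left out, log2 fold changes against WT ranged from -0.069 to 0.37 (DUSP4), -0.093 to 0.076 (DUSP5), -0.76 to 0.52 (DUSP7) and -0.092 to 0.28 (SPRED2) in the ERF KD-labelled libraries, from -0.092 to 1.06 (DUSP6), -0.15 to 0.060 (SPRY1), -0.061 to 0.20 (SPRY2), -0.16 to 0.028 (SPRED1) and -0.82 to 1.26 (SPRED3) in the CIC KO-labelled pair, and from -0.30 to 0.13 (SPRY1) and -0.29 to 1.28 (SPRED3) in the codeletion. DUSP7 in the codeletion against the ERF KD-labelled pair ranged from -1.18 to 0.10. A search for the CIC octamer as the study's text spells it, chosen after seeing the data, again found 1 window. Groups of 2 limit every test, and SPRED3 rests on at most 23 counts a library.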
